A study of Mus musculus with 4 samples.

Results

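A set of 9 genes that define macrophages was examined in RAW264.7, a macrophage line that came from a virus-induced mouse tumour. They were taken by name: 6 lineage transcription factors (Spi1, Cebpa, Cebpb, Maf, Irf8 and Runx1) and 3 identity markers (Csf1r, Adgre1 and Cd68). All 9 were found among the 21523 gene identifiers of the table, and 8 were expressed enough to be tested. The study compared 2 libraries from cells given 0.5 mM 1,5-anhydroglucitol (1,5-AG), a polyol like glucose but without the hydroxyl group on carbon 1, for 24 h, with 2 libraries from cells given no treatment. All cells were kept in DMEM with fetal bovine serum and antibiotics. The labels give the controls no culture time and do not say whether replicates were separate cultures. The p-values therefore rest on how far 2 libraries of a group differ, which could be technical variation alone. Each group is a single tumour-derived line, so primary macrophages were not represented.

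Macrophages arise from blood progenitors under the control of a few transcription factors. PU.1, the product of Spi1, opens myeloid enhancers, and C/EBP alpha, IRF8 and RUNX1 act with it at many of them. These factors switch on Csf1r, the receptor for the growth factor CSF1 on which macrophage survival depends. RUNX1 is needed for blood stem cells to form in the embryo, IRF8 steers progenitors towards monocytes and away from neutrophils, and c-Maf, the product of Maf, is linked with mature resident macrophages.

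Levels are in FPKM, in which the fragment count of a gene is divided by its exon length and by the size of the library. They allow a rough comparison between genes. The length counts all annotated exons of a gene merged (12025 bases for Runx1, 1504 for Cebpb), whether or not these cells use them. Library sizes were inferred from the spacing of the FPKM values. They came to 14616556 and 15112965 fragments in the 1,5-AG libraries and 15163807 and 16228673 fragments in the control libraries. The label of a macrophage line matched its strongest markers: Lyz2, Cd14, Cd68, Tyrobp and Csf1r each had at least 237 FPKM in every library. Of the 10 macrophage markers checked, Aif1 was the weakest, at 1.43 and 1.38 FPKM with 1,5-AG and 0.861 and 1.21 FPKM in control. Markers of other cell types were near 0 apart from 4 genes at a mean of 1 FPKM or more. The B cell gene Ighm had 37.9 and 39.6 FPKM with 1,5-AG against 49.1 and 53.5 FPKM in control, and it did not pass the test (adjusted p = 0.0516). It passed as lower in 5 of the 16 alternatives, among them voom, with adjusted p-values from 0.000193 to 0.185 over the 16. The granulocyte genes Cebpe and Csf3r and the T cell kinase gene Lck were the others, with means between 1.25 and 4.55 FPKM in each group and no call. The 5 B cell markers in the table, of 8 listed, summed to 38.2 and 39.8 FPKM with 1,5-AG and 49.3 and 53.8 FPKM in control, and their part in any result was not tested. Ighm made up nearly all of these sums. Cd79a had 0.188 and 0.182 FPKM with 1,5-AG and 0.136 and 0.127 FPKM in control. Pax5, Cd79b and Vpreb1 held at most 2 fragments in any library. Summed over the markers in the table, the 6 of dendritic cells came to 0.244 and 0.372 FPKM with 1,5-AG and 0.190 and 0.323 FPKM in control. The 7 granulocyte markers summed to 6.43 and 6.96 FPKM with 1,5-AG and 7.67 and 7.43 FPKM in control, and the 4 of T and NK cells to 1.36 and 1.57 FPKM with 1,5-AG and 1.64 and 1.33 FPKM in control. The 4 of erythroid, megakaryocyte and mast cells summed to 1.30 and 0.649 FPKM with 1,5-AG and 0.407 and 0.463 FPKM in control. Progenitor and fibroblast markers reached at most 0.0736 FPKM in sum in any library. In a culture measured in bulk, fewer cells of a kind and less RNA per cell cannot be told apart.

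The 9 genes fell into 3 tiers of level. Cd68, Csf1r and Spi1 lay above 95 FPKM in every library, at the 99.4th, 98.5th and 96.0th percentile of tested genes by mean level. Adgre1, Cebpa, Irf8, Cebpb and Runx1 lay between 4.46 and 23.4 FPKM. Maf was all but absent. In the 1,5-AG libraries the order was Cd68, Csf1r, Spi1, Adgre1, Cebpa, Irf8, Cebpb, Runx1 and Maf, and of these neighbours Cebpa and Irf8 overlapped. In control the order was the same, but there the levels of Irf8 and Cebpb overlapped, as did those of Cebpb and Runx1, while Cebpa and Irf8 did not.

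**Figure D1:**
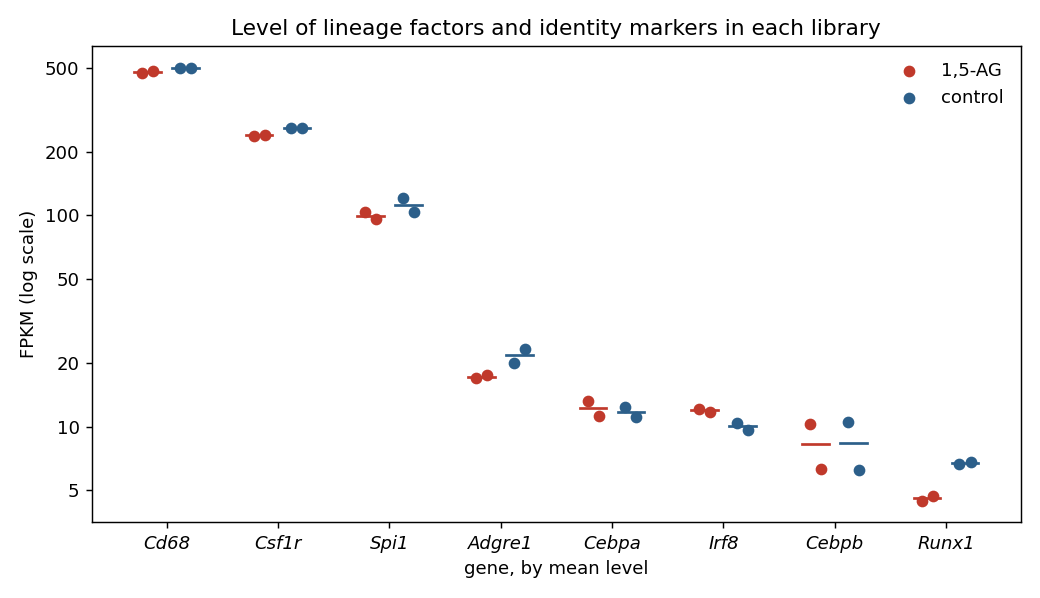
FPKM on a log axis for the 8 tested genes, 2 points per group (1,5-AG left, control right) with a bar at the mean; Maf, listed at 0 in 3 of the 4 libraries, is not drawn. The groups stand apart for Runx1, while the replicates of Cebpb lie near 10 and near 6 FPKM in both groups.

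Runx1 fell in cells given 1,5-AG, and it was the single tested gene of the 8 to pass the threshold, an adjusted p of 0.05 in limma over all genes. Of all 11120 tested genes 1.46% passed in either direction and 0.647% as lower. At an unadjusted p under 0.05, there were 4 of the 8 (Runx1, Adgre1, Irf8 and Csf1r), against 18.2% of tested genes. Both 1,5-AG libraries lay on one side of both controls for 5 of the 8 (these 4 and Cd68), against 49.6% of tested genes. Log2 fold changes subtract the control mean from the 1,5-AG mean of log2(FPKM + 1), and the added 1 shrinks the change of weak genes. Of the 8, 2 were positive and 6 negative, with a median of -0.09, against 5464 positive and 5656 negative and a median of -0.0025 over all tested genes. With 2 libraries a group, the smallest two-sided p of an exact permutation test is 0.333, so every call depends on variance that limma shares among genes.

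**Figure D2:**
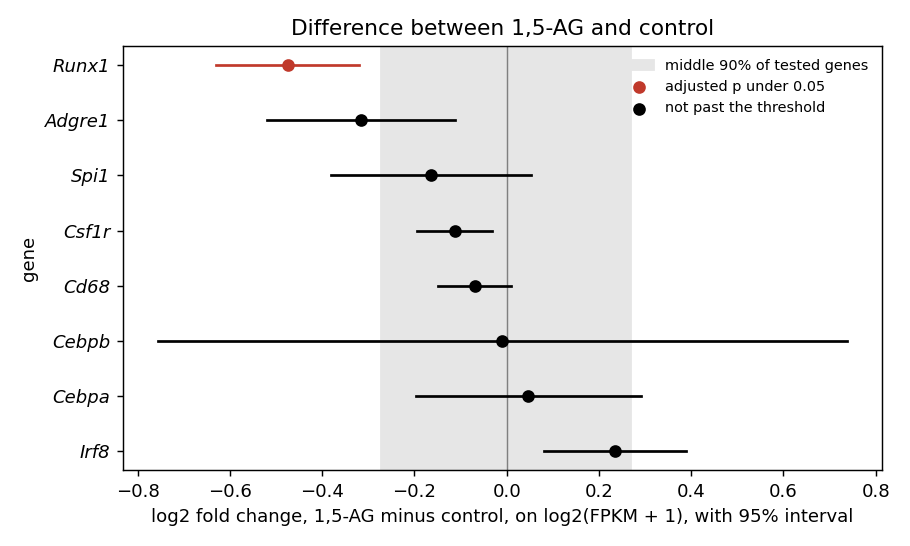
Log2 fold change (1,5-AG minus control) of FPKM + 1 with limma's 95% interval for the 8 tested genes. The grey band holds the middle 90% of all tested genes, from -0.27 to 0.27. Runx1 lies furthest to the left at -0.47, and Irf8 furthest to the right at 0.23.

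Runx1 (ENSMUSG00000022952) encodes a DNA-binding subunit of core binding factor. It had 4.46 and 4.69 FPKM with 1,5-AG, against 6.67 and 6.82 FPKM in control. These rest on 784 and 853 fragments with 1,5-AG and 1217 and 1331 fragments in control. Both 1,5-AG libraries lay well below both controls, by more than the replicates of either group differed. The mean fell by 32.2%, to 4.58 ± 0.165 FPKM with 1,5-AG against 6.75 ± 0.103 FPKM in control (SD, n = 2 each). The log2 fold change was -0.47 (SE 0.06, 95% interval -0.63 to -0.32, adjusted p = 0.0441). The sign held in all 16 alternative settings, from -0.56 to -0.43. The call depended on every library: the adjusted p was 0.161 without 1,5-AG replicate 1, 0.140 without 1,5-AG replicate 2, 0.154 without control replicate 1 and 0.174 without control replicate 2. It was also lost with no variance trend (0.0950), with no filter on low values (0.152) and with the replicate block and GC trend removal together (0.0611), while voom, limma's method for counts, gave 6.26e-06 on the recovered fragments, the lowest of a range of 6.26e-06 to 0.174 over the 16.

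The Runx1 gene (chromosome 16, 92601466 to 92826149 on the minus strand, mm10) has a pair of RefSeq start sites 128745 bases apart. The table gives a single value per gene, so use of the distal and the proximal start could not be separated. The 250 bases before each start are shown because they differ in composition, with 45.6% G and C at the distal site and 67.6% at the proximal site, against a median of 52.4% over 32851 RefSeq windows of the same length. Sequences are from RefSeq on GRCm38.p6, 5′ to 3′ on the gene's strand. Capitals mark any match, on either strand, to 4 motifs. The core of the PU.1 box was searched as GAGGAA, where the factor encoded by Spi1 binds. The RUNX site was searched as TGTGGT, which RUNX1 itself can bind. The C/EBP palindrome was searched as TTGCGCAA, and the TATA box as TATAAA. The distal window is chr16:92826075-92826324 and the proximal one chr16:92697330-92697579, both on the minus strand.
Runx1 distal: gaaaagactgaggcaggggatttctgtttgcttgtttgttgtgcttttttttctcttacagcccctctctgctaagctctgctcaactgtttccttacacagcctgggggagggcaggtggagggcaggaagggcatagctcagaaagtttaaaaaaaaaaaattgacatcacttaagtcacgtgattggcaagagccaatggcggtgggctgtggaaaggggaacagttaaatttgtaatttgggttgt
Runx1 proximal: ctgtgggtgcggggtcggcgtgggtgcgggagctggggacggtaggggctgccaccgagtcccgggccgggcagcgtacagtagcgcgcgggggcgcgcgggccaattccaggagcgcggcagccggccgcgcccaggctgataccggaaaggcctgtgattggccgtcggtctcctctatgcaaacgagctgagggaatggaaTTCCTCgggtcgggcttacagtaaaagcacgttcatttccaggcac
The proximal window held a PU.1 box core on the opposite strand, 46 bases before the start, and the distal window held none of the 4 motifs. Of all windows 23.3% held the PU.1 box core, 14.0% the RUNX site, 0.164% the C/EBP palindrome and 12.4% the TATA box. No printed window holds overlapping matches, and a match is a run of letters, not a measured binding site.

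The 3 relatives of RUNX1 in core binding factor were looked at after their values were seen. Cbfb, the shared non-DNA-binding subunit, had 64.3 and 63.8 FPKM with 1,5-AG against 64.7 and 64.6 FPKM in control, with a log2 fold change of -0.01 (adjusted p = 0.889). Runx2, best known from bone, was too weak to be tested, with 31 and 48 fragments with 1,5-AG against 61 and 64 fragments in control. Runx3 had 2 and 6 fragments with 1,5-AG and 3 and 4 in control. Runx1 was thus the most abundant of the 3 Runx genes in every library. The antisense transcript Gm26626 overlaps 106 bases of Runx1 exon, at 1.03 and 0.416 FPKM with 1,5-AG and 0.580 and 1.08 FPKM in control. Libraries were made with a strand-specific kit, but with the strand setting of the counting not stated, reads over such overlaps cannot be assigned with certainty.

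Irf8 (ENSMUSG00000041515, chromosome 8, 120736358 to 120756694, plus strand), the interferon regulatory factor of monocytes, had the largest positive difference of the 8. It had 12.2 and 11.7 FPKM with 1,5-AG, against 10.4 and 9.59 FPKM in control, from 1254 and 1249 fragments with 1,5-AG and 1114 and 1098 in control. Both 1,5-AG libraries lay above both controls. The log2 fold change was 0.23 (SE 0.06, 95% interval 0.08 to 0.39), and it did not pass the limma test (adjusted p = 0.142). Its sign held in all 16 settings (0.18 to 0.30), and voom was the one setting in which it passed (adjusted p = 0.0121, against up to 0.411 in the others).

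Irf8 has a TATA box sequence 31 bases before its first RefSeq start, and the window is shown for comparison with the Runx1 windows, which hold none. It is chr8:120736108-120736357 on the plus strand, with 67.2% G and C and no other match to the 4 motifs.
Irf8: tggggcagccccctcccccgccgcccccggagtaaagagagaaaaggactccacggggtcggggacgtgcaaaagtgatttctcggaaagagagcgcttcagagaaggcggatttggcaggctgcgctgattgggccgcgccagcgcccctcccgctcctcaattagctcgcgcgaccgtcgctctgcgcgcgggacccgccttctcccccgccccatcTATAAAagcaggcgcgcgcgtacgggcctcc
Of the other windows, that of Cebpa also held TATAAA, 30 bases before its start, that of Cebpb held none of the 4 motifs, and the second Irf8 start held none. RefSeq windows were used for 5 of the 9 genes (Runx1, Irf8, Cebpa, Cebpb and Cd68).

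Spi1 (ENSMUSG00000002111, chromosome 2, 91082390 to 91115756, plus strand), which encodes PU.1, was the most abundant of the factors. It had 103.8 and 95.5 FPKM with 1,5-AG, against 120.5 and 103.5 FPKM in control. The higher 1,5-AG library lay just above the lower control library, so the groups overlapped. The log2 fold change was -0.16 (SE 0.08, 95% interval -0.38 to 0.05, adjusted p = 0.395). That interval holds both 0 and the differences of Csf1r and Adgre1. Its sign held in all 16 settings, but it was -0.27 without control replicate 2 and -0.05 without control replicate 1.

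The C/EBP factors, leucine zipper proteins that drive myeloid genes, did not pass either. Cebpa (ENSMUSG00000034957, chromosome 7, 35119293 to 35121928, plus strand), needed for the step from progenitor to myeloid precursor, had 13.2 and 11.2 FPKM with 1,5-AG and 12.4 and 11.1 FPKM in control, with a log2 fold change of 0.05 (95% interval -0.20 to 0.29, adjusted p = 0.844). Cebpb (ENSMUSG00000056501, chromosome 2, 167688915 to 167690418, plus strand), which is induced in inflammation, had 10.2 and 6.29 FPKM with 1,5-AG and 10.5 and 6.23 FPKM in control. The means of Cebpb were 8.26 ± 2.79 FPKM with 1,5-AG and 8.35 ± 3.01 FPKM in control (SD, n = 2 each), and the interval of its log2 fold change ran from -0.76 to 0.74 (adjusted p = 0.992).

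Cebpb differed more within each group than between the groups. Replicate 1 exceeded replicate 2 by 0.62 on the log2(FPKM + 1) scale with 1,5-AG and by 0.67 in control, differences larger than those of 98.0% and 98.2% of tested genes. Cebpa (0.22 with 1,5-AG and 0.15 in control) and Spi1 (0.12 with 1,5-AG and 0.22 in control) were also higher in replicate 1 of both groups. So was Irf8, by 0.05 with 1,5-AG and 0.11 in control. Among the 2224 tested genes richest in G and C (55.1% to 75.5% of transcript bases), the median of replicate 1 minus replicate 2 was 0.03 with 1,5-AG and 0.07 in control, and among the 2224 poorest in G and C it was -0.02 with 1,5-AG and -0.05 in control. The median difference between 1,5-AG and control also varied with base composition, at -0.04 in the richest 2224 and 0.02 in the poorest. Cebpb has 67.2% G and C, Cebpa 61.2%, Spi1 56.2% and Irf8 55.8%. The part of base composition in the Cebpb difference was not tested. Exons of Cebpb overlap Tmem189, on the opposite strand, over 312 bases, and Tmem189 had 15.7 and 16.3 FPKM with 1,5-AG and 15.4 and 15.7 FPKM in control, without such a split.

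**Figure D3:**
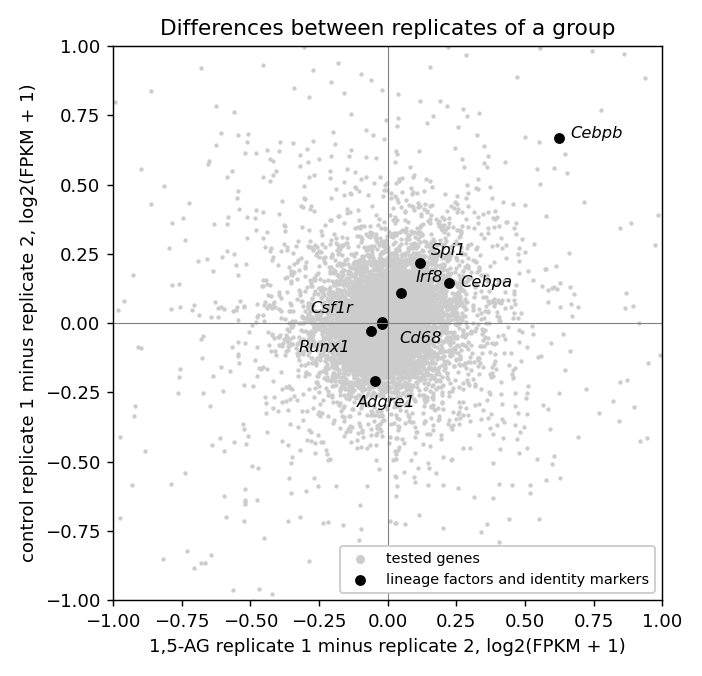
Replicate 1 minus replicate 2 on the log2(FPKM + 1) scale, in the 1,5-AG group (horizontal) and the control group (vertical), for tested genes (grey) and the 8 genes described (black). Cebpb lies at 0.62 with 1,5-AG and 0.67 in control, far from the other 7, and 175 grey genes fall beyond the axes at 1.

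Maf (ENSMUSG00000055435, chromosome 8, 115682942 to 115707794, minus strand) was listed at 0 FPKM in both 1,5-AG libraries and in control replicate 2, and control replicate 1 held 1 fragment (0.0080 FPKM). A count of 0 allows up to 3 fragments per library, which for the 8241 bases of Maf exon is 0.0224 to 0.0249 FPKM. Such limits reflect counting error alone, since fragments carried no tags that mark single molecules. All 4 libraries were at or under this limit, so no fold is given.

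The 3 identity markers all had lower means with 1,5-AG, their groups did not overlap, and limma called 0 of them, with 2 of 3 at an unadjusted p under 0.05. Over all tested genes, 49.6% did not overlap between the groups in either direction, and 18.2% had an unadjusted limma p under 0.05. By voom, Csf1r (adjusted p = 0.0217) and Adgre1 (adjusted p = 0.00618) passed as lower and Cd68 (adjusted p = 0.268) did not, whereas over the 16 alternatives the adjusted p ran up to 0.482 for Csf1r, 0.374 for Adgre1 and 0.684 for Cd68. Voom called 8.30% of the genes it tested, and 4 of the 8 described here, with Runx1 and Irf8 as the others.

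Csf1r (ENSMUSG00000024621), the CSF1 receptor gene, had 237.2 and 240.4 FPKM with 1,5-AG, against 258.1 and 258.4 FPKM in control. At least 20018 fragments per library stood behind it, and both 1,5-AG libraries lay below both controls. The log2 fold change was -0.11 (SE 0.03, 95% interval -0.19 to -0.03, adjusted p = 0.169). Taking out the GC and length trend of each library moved it to -0.07 and quantile normalization to -0.17. Hmgxb3, on the opposite strand, overlaps 873 bases of Csf1r exon, at 5.16 and 4.90 FPKM with 1,5-AG and 4.63 and 4.79 FPKM in control.

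Adgre1 (ENSMUSG00000004730, chromosome 17, 57358691 to 57483527, plus strand), the gene of the F4/80 antigen used to sort mouse macrophages, had 16.9 and 17.5 FPKM with 1,5-AG, against 20.1 and 23.4 FPKM in control. The control libraries lay further apart than the 1,5-AG libraries. The mean was 17.2 ± 0.417 FPKM with 1,5-AG and 21.7 ± 2.34 FPKM in control (SD, n = 2 each), a ratio of 0.792. The log2 fold change was -0.32 (SE 0.08, 95% interval -0.52 to -0.11, adjusted p = 0.139). It was -0.42 without control replicate 1 and -0.21 without control replicate 2.

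Cd68 (ENSMUSG00000018774, chromosome 11, 69664213 to 69666153, minus strand), the gene of a heavily glycosylated protein of late endosomes and lysosomes, was the most abundant of the 9. It had 471.8 and 479.0 FPKM with 1,5-AG, against 499.6 and 497.9 FPKM in control, a ratio of means of 0.953. The log2 fold change was -0.07 (SE 0.03, 95% interval -0.15 to 0.01, adjusted p = 0.329). Its interval excludes a fall as large as that of Runx1. The 250 bases before its start are shown because they carry the PU.1 box core in the orientation of the gene, 225 bases before the start. The window is chr11:69666171-69666420 on the minus strand, with 49.2% G and C.
Cd68: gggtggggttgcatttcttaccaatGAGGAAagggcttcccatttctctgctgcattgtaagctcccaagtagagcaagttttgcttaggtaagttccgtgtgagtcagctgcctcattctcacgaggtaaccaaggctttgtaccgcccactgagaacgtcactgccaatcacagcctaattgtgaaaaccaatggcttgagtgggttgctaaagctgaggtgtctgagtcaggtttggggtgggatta

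**Figure D4:**
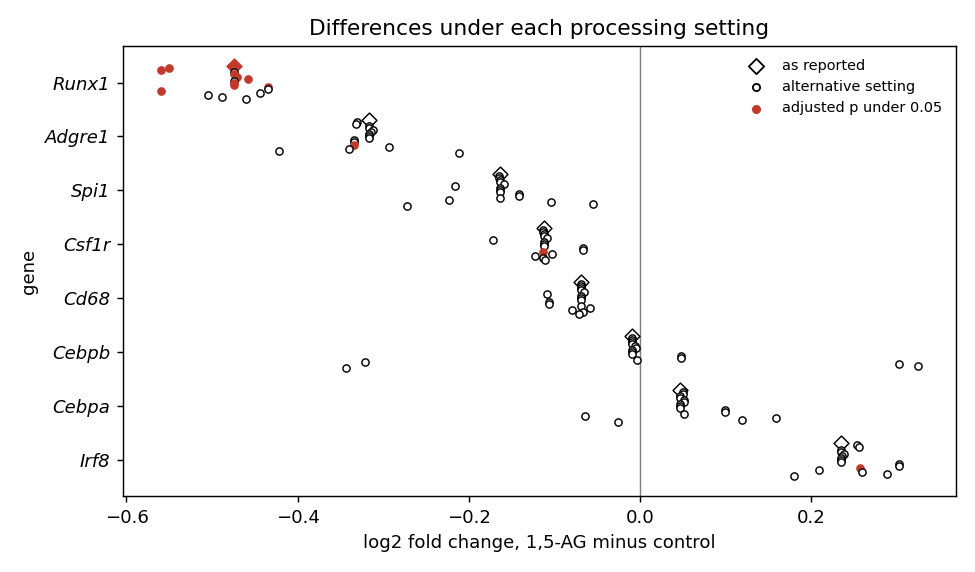
Log2 fold change of each of the 8 genes under the reported setting (diamond) and 16 alternatives (circles), filled where the adjusted p was under 0.05. Runx1, Adgre1, Spi1, Csf1r and Cd68 stay left of 0 and Irf8 right of it, whereas Cebpb and Cebpa lie on both sides.

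Around these genes, 4 lists were read out of the same fit, after earlier results of these data were known. Of 46 other myeloid lineage factors 33 were tested and Klf4, a zinc finger factor of monocytes, alone passed (3.03%, against 1.46% of all tested genes): it fell to 5.12 and 4.12 FPKM with 1,5-AG, against 8.98 and 8.23 FPKM in control (log2 fold change -0.78, SE 0.10, adjusted p = 0.0461). Its call was lost with quantile normalization (adjusted p = 0.0549), with no filter on low values (0.167) and with no variance trend (0.106), while voom gave 3.58e-05. The Klf4 call was also lost when any library was left out, with log2 fold changes from -0.905 to -0.649. Of the 33, 15 were positive and 18 negative, with a median of -0.01, against -0.0025 over all tested genes. Voom called 5 of this list, against 8.30% of the genes it tested. In this list the 3 tested IRF relatives (Irf1, Irf2 and Irf5) lay between 0.02 and 0.10, and the 5 tested ETS relatives of PU.1 (Ets2, Fli1, Etv6, Elf1 and Elf4) lay between -0.07 and 0.23.

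Of 46 other macrophage identity genes 31 were tested, 4 fell and 1 rose (16.1%, against 1.46% of all tested genes), with a median of -0.15, against -0.0025 over all tested genes. Voom called 13, against 8.30% of the genes it tested. Lyz2, the macrophage lysozyme, whose neighbour Lyz1 is close enough in sequence to share reads, fell to 3095 and 3001 FPKM with 1,5-AG, against 4554 and 4422 FPKM in control (-0.56, adjusted p = 0.0169). Sirpa, the inhibitory receptor for CD47, fell to 91.0 and 93.7 FPKM with 1,5-AG, against 125.5 and 124.4 FPKM in control (-0.43, adjusted p = 0.0209). Cd33, a sialic acid-binding receptor, fell to 10.8 FPKM in both 1,5-AG libraries, against 15.4 and 16.3 FPKM in control (-0.52, adjusted p = 0.0274). The fractalkine receptor gene Cx3cr1, outside the naming rule, fell to 94.2 and 92.7 FPKM with 1,5-AG, against 112.0 and 114.5 FPKM in control (-0.27, adjusted p = 0.0446). These 4 genes lay lower in both 1,5-AG libraries than in both controls. Itgb2, the beta 2 integrin chain, rose to 105.5 and 106.2 FPKM with 1,5-AG, against 76.2 and 80.8 FPKM in control (0.43, adjusted p = 0.0275). All calls of this list were lost with no filter on low values, with no variance trend and when any library was left out. With 1 library left out, log2 fold changes ran from -0.454 to -0.411 for Sirpa and from -0.553 to -0.481 for Cd33. Cd14, the lipopolysaccharide co-receptor, had 547.8 and 518.0 FPKM with 1,5-AG and 535.8 and 501.4 FPKM in control, with overlapping groups (0.04, adjusted p = 0.733).

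Among 35 genes of CSF1 receptor ligands and signalling 31 were tested and 1 fell (3.23%, against 1.46% of all tested genes), with 22 negative, 9 positive and a median of -0.07, against 5656 negative, 5464 positive and a median of -0.0025 over all tested genes. Voom called 11 of the 31, against 8.30% of the genes it tested. The gene that fell was Dok3, an adaptor that restrains kinase signalling. It had 17.8 and 18.9 FPKM with 1,5-AG against 24.9 and 24.8 FPKM in control (-0.42, SE 0.05, adjusted p = 0.0352). Its call was lost when each library's GC and length trend was removed (-0.37, adjusted p = 0.0835). It was also lost with no filter on low values (0.113) and with no variance trend (0.105), while voom gave 0.000267. The Dok3 call was lost too when any library was left out, with log2 fold changes from -0.457 to -0.380. The ligand gene Csf1 itself had 4 and 0 fragments with 1,5-AG and 3 and 6 in control. The list also held Csf2ra (log2 fold change -0.20) and Csf2rb (-0.17), genes of receptors other than that of CSF1. Neither was called by limma.

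Of 16 textbook target genes of PU.1 and C/EBP, 14 were tested, 2 rose and 1 fell (21.4%, against 1.46% of all tested genes), with a median of 0.04. Voom called 5 of the 14, against 8.30% of the genes it tested. Ncf1, the p47-phox subunit of the phagocyte oxidase, rose to 189.0 and 186.3 FPKM with 1,5-AG, against 139.6 and 141.4 FPKM in control (0.41, adjusted p = 0.0209). Itgb2 and Lyz2 were the others and also stand in the identity list, so these counts are not independent. Each of these calls was lost when any of the 4 libraries was left out, with no filter on low values and with no variance trend.

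**Figure D5:**
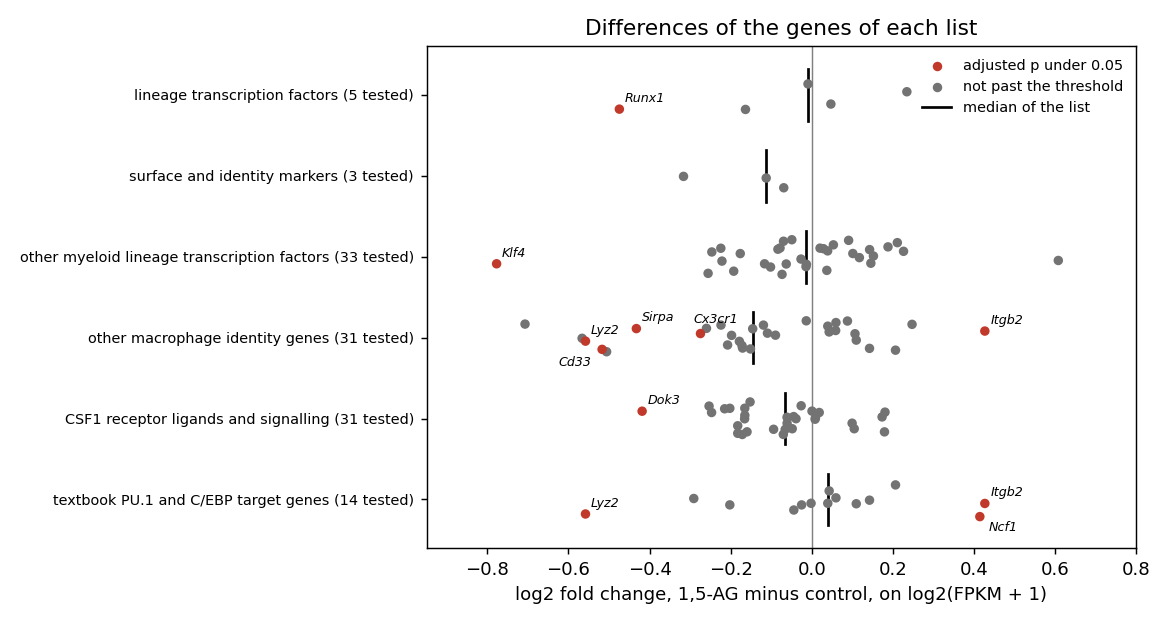
Log2 fold change (1,5-AG minus control) of the tested genes in the 9 described and in each list around them, with a black line at each median, genes past the threshold in red with their names, and a gene of 2 lists drawn in both. Red points lie on both sides of 0 in the identity and target gene lists.

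The genes nearest to Spi1 and to Csf1r across the 4 libraries were picked by the root mean square difference of log2(FPKM + 1), each gene centred on its mean. Among those nearest to Spi1 were Thap7 (0.0122) and Tmem86a (0.0149). Those nearest to Csf1r were Cdk6, a cell cycle kinase gene (0.00271), Hp1bp3 (0.00324) and Ctdp1 (0.00512). With 4 libraries such likeness is common: 169 tested genes lay within 0.05 of Spi1 and 1897 within 0.05 of Csf1r.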

How the data were processed

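RNA of 4 libraries was prepared with a stranded mRNA kit, per the labels' protocols. The authors deposited FPKM values, 1 column per library. HISAT2, HTSeq, Cufflinks, Trimmomatic and the build mm10 are named, per the submitters' processing notes, with versions, tool roles, annotation and counting strand not given in the sources used here.

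Symbols, positions and merged exon lengths came from GENCODE M21 on the same build, which matched 21508 of 21523 identifiers. FPKM times exon length gave whole fragments in all 4 libraries, within 0.02 fragments, for 99.4% of matched genes. The limma package (3.58.1, R 4.3.3) compared log2(FPKM + 1) between groups, with a variance trend and the group as the only term, for genes with a mean of at least 1 FPKM over all libraries. Of rows sharing a symbol the highest was kept, which left out 8. Tests were two-sided with Benjamini-Hochberg adjustment over 11120 genes, and adjusted p-values are from this fit unless voom is named. The fit was checked on simulated fragments.

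The 9 genes and the lists were chosen with earlier results of these data known. Besides the 9, up to 3 genes per list and direction past the threshold were named by smallest p, with other-cell markers from 1 FPKM, and the 3 genes nearest to Spi1 and Csf1r. Genes outside this rule are marked as such or given as context: Aif1, Cd14, Csf1, Tyrobp and the genes overlapping exons. A gene that the rule names is not reported here.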

Additional observations from a re-analysis of the deposited data

How the results depend on the processing

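All 16 alternatives were planned. In all, 162 genes passed as reported, and the count became 0 with no filter on low values (limma, 2628 at an unadjusted p under 0.05), 360 at a mean of at least 5 FPKM, 5 with no variance trend, 923 with voom on the recovered fragments and 2 to 11 with 1 library left out. Leaving out a library leaves a lone sample that is assumed to vary like the other group. With the replicate block it was 310. The labels do not say whether same-numbered libraries were handled together. Their deviations had a correlation of 0.0124 over all tested genes, and a shared batch was not tested. Of the lineage factors and identity markers, 1 passed as reported. That number was 0 with no filter (4 at an unadjusted p under 0.05), 0 with no variance trend (3), 0 with the replicate block and GC trend removal together (5), 0 with any 1 library left out (2 to 4) and 4 with voom. Of the values of the 8 tested genes under alternatives, 112 kept their side of the threshold and sign, 7 lost it, 3 gained it and 6 changed sign. Cebpb was 0.0483 with the GC trend removed, with or without the block, and -0.343 to 0.325 with 1 library left out, and Cebpa was -0.0646 to 0.159 with 1 library left out. Among markers of other cells, Ighm passed with the replicate block (adjusted p = 0.0261), with the block and GC trend removal (0.0295), with robust variance (0.0425), at a mean of at least 5 FPKM (0.0198) and with voom (0.000193), and Csf3r with voom (-0.65, adjusted p = 0.0407). With the replicate block 2 other lineage factors, 8 identity genes and 2 CSF1 receptor signalling genes passed, and at a mean of at least 5 FPKM 1, 8 and 3 did. Cebpe was -0.175 to 0.0374 with 1 library left out, and Lck 0.0144 with quantile normalization, 0.00131 with the GC trend removed and -0.0765 to 0.0474 with 1 library left out. Some settings also used fewer libraries or other gene sets, and the cause of these changes was not tested. Runx2 and Runx3 lay below the filter on FPKM, and for Maf a count of 0 still allows up to 0.0224 to 0.0249 FPKM at this depth.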

Other observations

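Some genes of the lists showed patterns outside the comparison, named after their values were seen. Trem2, a lipid-sensing receptor of macrophages, had 5.82 and 4.86 FPKM with 1,5-AG against 12.2 and 5.63 FPKM in control, so that control replicate 1 stood apart from the other libraries. Gfi1, a transcriptional repressor that acts in neutrophil precursors and opposes monocyte fate, had 29 and 25 fragments with 1,5-AG against 6 and 12 in control, below the level needed for the test. Irf4, a relative of Irf8, had 29 and 36 fragments with 1,5-AG against 57 and 49 in control and was also too weak to be tested. Fcgr3, a low-affinity immunoglobulin G receptor gene, had 4.30 and 3.47 FPKM with 1,5-AG against 6.69 and 7.21 FPKM in control, just outside the threshold (log2 fold change -0.71, adjusted p = 0.0523).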
